A study of Mus musculus with 54 samples.

Results

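The genes described here encode the small basic proteins that pack sperm DNA and their closest partners: the protamines Prm1 and Prm2, the protamine-like Prm3, the transition proteins Tnp1 and Tnp2, and H1f7, a linker histone of spermatids. They were chosen by gene symbol, and all 6 of the 6 symbols were found among the 26264 genes of both count tables, 1 for testis and 1 for ovary. The series holds 54 mouse RNA libraries: 27 of testis, taken 35 days after birth, and 27 of ovary, taken 30 days after birth. They make up 18 groups of 3. The first generation (F1) was exposed through the drinking water from 8.5 days post-coitum until death to a control solution with 0.001% ethanol or to 1 of 2 doses of a mixture of ibuprofen (IBU), its metabolite 2-hydroxyibuprofen (2hIBU), diclofenac (DCF) and the synthetic estrogen 17a ethinyl-estradiol (EE2). Dose 1 held 11.3 ng/L of IBU, 90 ng/L of 2hIBU, 22.5 ng/L of DCF and 2.25 ng/L of EE2. Dose 2 held 113 ng/L of IBU, 225 ng/L of 2hIBU, 112 ng/L of DCF and 45 ng/L of EE2. The second generation (F2) came from F1 parents in 6 kinds of cross, in which neither parent, the mother alone (maternal dose 1 or dose 2), the father alone (paternal dose 1 or dose 2) or both parents (biparental dose 2) had been exposed. The labels name the mouse but no strain, and nothing in them says whether libraries A, B and C of a group came from separate litters, so p-values measure only the spread between these libraries.

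In spermatids, the germ cells that have finished meiosis, most histones are removed from the DNA, transition proteins take their place for a short time, and protamines then replace the transition proteins and condense the sperm head. The genes are transcribed in round spermatids, and their mRNAs are stored and translated later, in elongating spermatids. Prm1 and Prm2 are the protamines of mouse sperm, Prm2 being made as a longer precursor that is trimmed. Prm3 is an acidic relative that is not a DNA-packing protein, and H1f7 (also H1fnt or H1t2) is needed for normal condensation of the spermatid nucleus. At the age sampled the first wave of spermatogenesis is reaching its last steps, and the ovary holds no spermatids. Crem, a transcription factor of round spermatids, is known to act on cAMP-responsive elements in several of these promoters.

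The windows before the start sites are shown because the members varied together across libraries, and because the genes with the widest and the narrowest spread in F1 testis could be set side by side. They are the 100 bases before the RefSeq start, on the minus strand of GRCm38.p6, an older build than the mm39 named in the submitters' processing notes. Capitals mark TGANNTCA, a loose form of such an element that reads the same on both strands, and TATAA, searched on both strands and shown as TTATA where it lies on the other strand. The motifs do not overlap in these windows.
Prm1: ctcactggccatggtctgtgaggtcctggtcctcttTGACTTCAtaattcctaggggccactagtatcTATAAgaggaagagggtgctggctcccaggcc
Tnp1: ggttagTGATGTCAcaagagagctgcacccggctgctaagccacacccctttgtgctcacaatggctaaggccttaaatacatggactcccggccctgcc
Prm2: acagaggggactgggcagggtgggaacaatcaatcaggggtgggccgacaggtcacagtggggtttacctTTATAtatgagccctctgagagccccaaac
H1f7: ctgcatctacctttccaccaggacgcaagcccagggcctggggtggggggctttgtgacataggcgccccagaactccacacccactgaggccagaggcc
The windows lie at chr16:10796824-10796923 (Prm1), chr1:73015900-73015999 (Tnp1), chr16:10792106-10792205 (Prm2) and chr15:98257308-98257407 (H1f7). Prm1, Prm2, Prm3 and Tnp2 form 1 cluster on chromosome 16, with start sites 4718, 5909 and 8168 bases from that of Prm1 for Prm2, Prm3 and Tnp2. TGANNTCA occurs in 3 of the 6 windows, as TGACTTCA in Prm1, TGATGTCA in Tnp1 and TGAGGTCA in Prm3, and in 6.34% of 32851 RefSeq promoter windows of the same length. The window of Tnp2, not printed here, lacks it, although Tnp2 ranged 4.32 times in F1 testis, close to the 4.52 times of Prm1. The printed windows were picked by the spread seen in these data, and a link between motif and spread was not tested. TATAA occurs in Prm1 and Tnp2, and on the other strand in Prm2, against 10.2% of those windows. A match is a description of letters only.

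The libraries held 31.8 to 122.4 M gene counts (M, 1e6 counts) in F1 testis, 31.6 to 48.2 M in F2 testis, 36.6 to 57.4 M in F1 ovary and 37.9 to 84.7 M in F2 ovary. Testis libraries carried all 15 elongating spermatid, 13 round spermatid, 9 spermatocyte and 10 Sertoli cell markers listed, and ovary libraries carried all 10 oocyte and all 7 granulosa cell markers. Library C of F1 testis dose 2 stood apart: its scaling factor by the trimmed mean of M values was 0.787, the lowest in F1 testis, its spermatocyte markers summed to 3217 CPM (counts per M gene counts), and its Leydig cell markers to 659 CPM. Both were the lowest of the 9 F1 testis libraries. In bulk tissue, fewer cells of a type and less RNA per cell cannot be told apart.

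Protamine and transition protein mRNAs were among the most abundant of the testis. By mean CPM over the 27 testis libraries, Prm2 ranked 1 of all genes with 3692 CPM, Tnp2 ranked 6 with 2640 CPM, Prm1 ranked 9 with 2297 CPM and Tnp1 ranked 22 with 1572 CPM. H1f7 and Prm3 were far lower, at 410 CPM (rank 370) and 97.2 CPM (rank 2620). The 6 genes together took 0.702% to 2.27% of all gene counts in F1 testis and 0.773% to 0.993% in F2 testis. These ranks take no account of transcript length, which runs from 410 bases for Prm3 to 1308 bases for H1f7. CPM is best used to compare a gene with itself across libraries, so the order of the members was also taken per kilobase of the longest annotated transcript.

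Per kilobase, the order in F2 testis was nearly fixed. Prm2 (4527 to 5823 CPM per kb) was followed by Tnp2 (3268 to 4513), Prm1 (3200 to 4168), Tnp1 (2007 to 2912), H1f7 (219 to 326) and Prm3 (149 to 242) in 17 of 18 libraries. Ranges of Tnp2 and Prm1 overlapped, as did those of H1f7 and Prm3, whereas Prm2 stayed above Tnp2 and Prm1 above Tnp1 in level per kb across all 18. F1 testis gave 7 different orders in 9 libraries: Prm1 was the highest of the 6 genes per kb in 5 libraries, Prm2 in 3 and Tnp2 in 1.

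In F1 testis the members varied between libraries of the same group, and some of them several-fold within dose 2. Prm1 was at 1714, 2059 and 4076 CPM in control libraries A, B and C, at 3374, 5767 and 4526 CPM with dose 1, and at 4321, 1275 and 4371 CPM with dose 2. Control C stood with the dose 1 libraries, and dose 2 B lay below every control, so the groups overlapped. The highest Prm1 level was 4.52 times the lowest.

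Prm2 varied less than its partner. It was at 3072, 4312 and 4797 CPM in controls A, B and C, at 4191, 4757 and 4497 CPM with dose 1, and at 4247, 2587 and 5155 CPM with dose 2, a range of 1.99 times. Dose 2 B was again the lowest library and control A the next, and the other 7 lay between 4191 and 5155 CPM. The SD of log2 CPM within groups was 0.36 for Prm2 and 0.74 for Prm1.

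Prm3, the acidic relative, was at 85.0, 122 and 143 CPM in the controls, at 99.3, 185 and 125 CPM with dose 1, and at 115, 79.6 and 246 CPM with dose 2. Its highest library was dose 2 C, its lowest dose 2 B.

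The transition proteins also ranged several-fold, Tnp1 more widely than any other member and Tnp2 a little less than Prm1. Tnp1 was at 1093, 1339 and 2885 CPM in the controls, at 2288, 4900 and 2685 CPM with dose 1, and at 2785, 890 and 4364 CPM with dose 2, a range of 5.51 times. Tnp2 was at 1862, 2583 and 4017 CPM in the controls, at 3178, 4601 and 3576 CPM with dose 1, and at 3485, 1855 and 8024 CPM with dose 2, a range of 4.32 times. Dose 1 B was the highest library for Tnp1 and dose 2 C for Tnp2. Dose 2 B was the lowest for both, and each gene's 3 groups overlapped.

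H1f7 was the steadiest: 389, 471 and 651 CPM in the controls, 487, 515 and 616 CPM with dose 1, and 528, 338 and 568 CPM with dose 2. Its range was 1.93 times, near the median of 1.85 times over the 10315 genes that averaged at least 10 CPM in testis. Of those genes, 1.71% had a wider range than Tnp1 across the 9 F1 libraries, 2.73% a wider range than Prm1 and 3.09% a wider range than Tnp2. Prm2 and H1f7 were unremarkable in this respect, with 40.5% and 44.8% of genes ranging more widely.

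**Figure D1:**
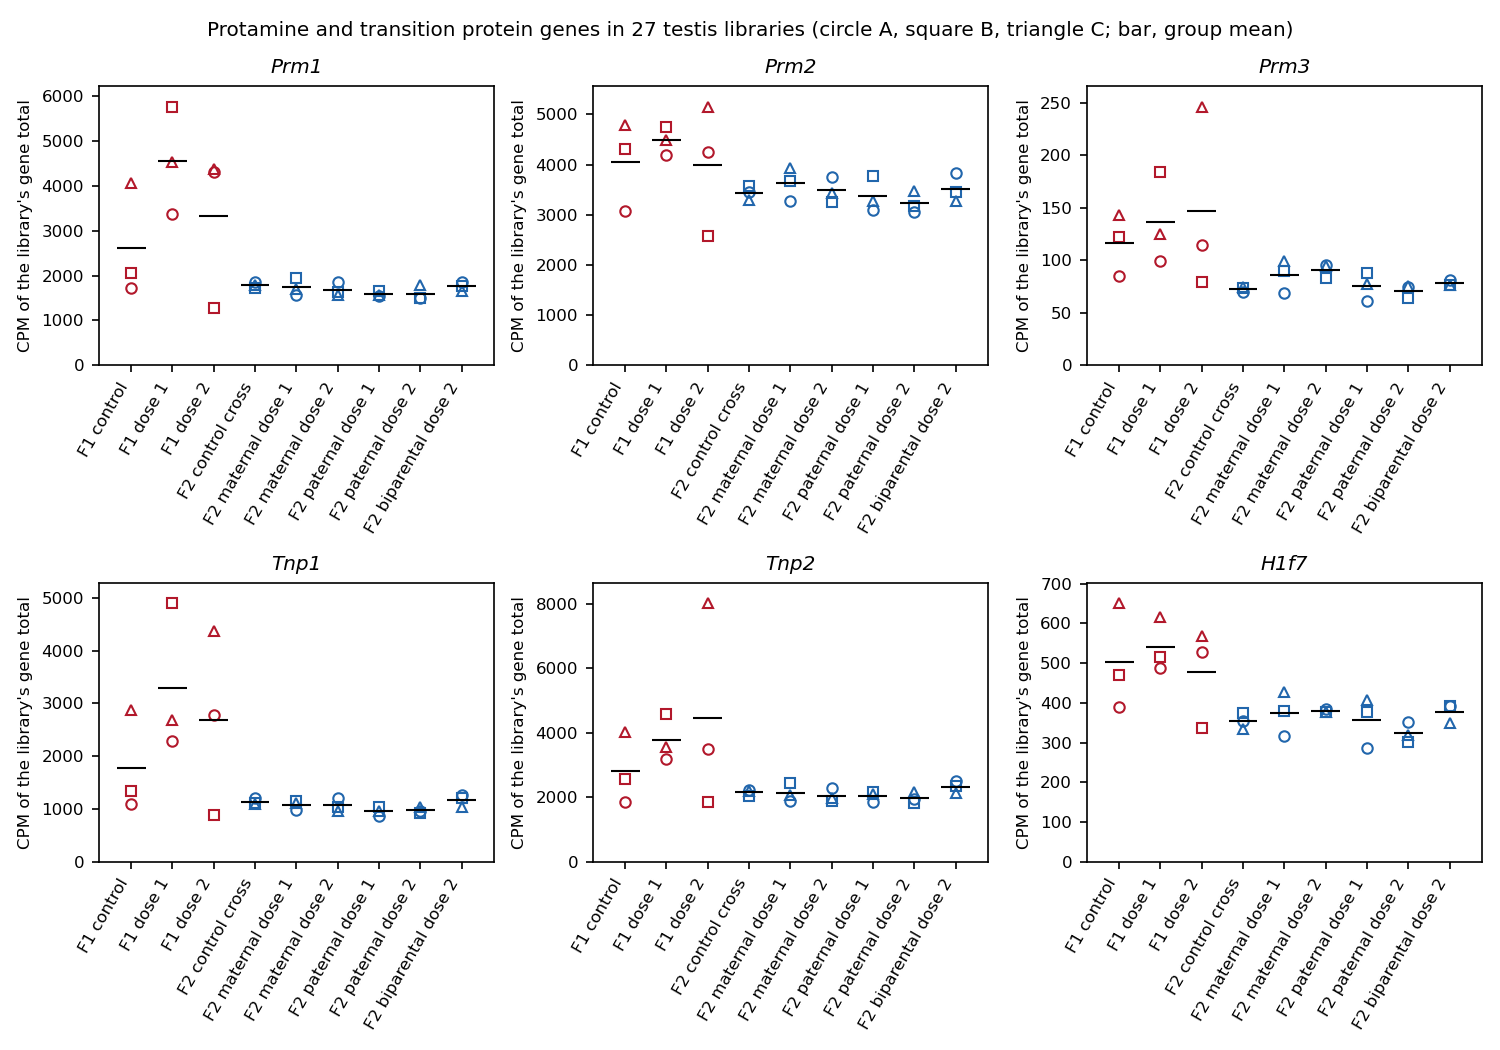
Level of each gene, in CPM of the library's gene total, in the 27 testis libraries; each symbol is 1 library (F1 red, F2 blue) and bars are group means. For Prm1, F1 libraries spread from 1275 to 5767 CPM and F2 libraries from 1501 to 1955 CPM.

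None of the 6 genes passed the test in any F1 testis comparison, and every gene's groups overlapped. The test was edgeR's quasi-likelihood F test with Benjamini-Hochberg adjustment over all genes tested, with calls at an adjusted p under 0.05. With dose 1 against control it called 0 of 6 members, against 0.0210% of 19025 genes. Log2 fold changes were 0.84 ± 0.54 for Prm1 (SE, n = 3 per group), 0.19 ± 0.33 for Prm2, 0.27 ± 0.48 for Prm3, 0.93 ± 0.63 for Tnp1, 0.46 ± 0.56 for Tnp2 and 0.14 ± 0.31 for H1f7, and the edgeR adjusted p was 0.998 for each. With dose 2 against control it called 0 of 6, against a background of 0.00526%, and the log2 fold changes were 0.47 ± 0.53 for Prm1, 0.09 ± 0.33 for Prm2, 0.48 ± 0.48 for Prm3, 0.74 ± 0.63 for Tnp1, 0.82 ± 0.56 for Tnp2 and 0.03 ± 0.31 for H1f7, with edgeR adjusted p from 0.982 to 0.997. For Prm2 and H1f7 the sign there comes from the scaling: mean CPM was 3996 with dose 2 against 4060 in control for Prm2 and 478 against 503 for H1f7, and scaled by library totals alone their log2 fold changes were -0.02 and -0.07. Dose 2 against dose 1 also gave 0 of 6 (background 0.0263%), with log2 fold changes of -0.37 for Prm1, -0.09 for Prm2, 0.21 for Prm3, -0.19 for Tnp1, 0.36 for Tnp2 and -0.11 for H1f7. At an unadjusted p under 0.05 the count was 0 in all 3 comparisons, and DESeq2 called 0 of 6 in each. Both dose comparisons share the 3 control libraries. Leaving out dose 2 B and dose 2 C, an alternative chosen after seeing the data, leaves dose 2 with 1 library, assumed to vary like the other groups. The log2 fold changes with dose 2 against control were then 0.75 for Prm1, 0.10 for Prm2, 0.01 for Prm3, 0.68 for Tnp1, 0.33 for Tnp2 and 0.10 for H1f7. Against dose 1, Prm3 and Tnp2 changed sign, to -0.27 and -0.14.

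F2 testis was far more even. Across 18 libraries the lowest, median and highest levels were 1501, 1685 and 1955 CPM for Prm1, and 3051, 3441 and 3925 CPM for Prm2. Those of Tnp1 were 877, 1045 and 1273 CPM, and those of Tnp2 were 1811, 2113 and 2500 CPM. These 4 genes ranged 1.29 to 1.45 times, and Prm3 (61.05, 76.9 and 99.1 CPM) and H1f7 (286, 376 and 427 CPM) ranged 1.62 and 1.49 times. Other genes were more even too: the median range over genes averaging at least 10 CPM was lower in F2 than in F1, despite more libraries. Of those genes, 55.7% had a wider range in F2 than Prm1 and 60.5% a wider range than Prm2. The shares were 36.4% for Tnp2, 24.9% for Tnp1, 19.9% for H1f7 and 10.5% for Prm3. Tnp1, Tnp2, H1f7 and Prm3 thus ranged more widely in F2 than most genes. For each of the 6 genes, 7 of the 9 F1 libraries lay above the highest F2 library, and the exceptions were F1 control A and dose 2 B. How often this held over all genes was not counted.

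Between the F2 crosses with an exposed parent and the control cross, members' log2 fold changes ran from -0.27 (Tnp1, paternal dose 1) to 0.32 (Prm3, maternal dose 2), and none was called. Against the control cross, 0 of 6 members were called for maternal dose 1 (background 0.0103% of 19379 genes), maternal dose 2 (0.372%), paternal dose 1 (0.201%), paternal dose 2 (0.00516%) and biparental dose 2 (0.0155%). The 5 comparisons share the 3 control cross libraries. For the other members, log2 fold changes with maternal dose 1 were -0.04 for Prm1, 0.07 for Prm2, -0.09 for Tnp1, -0.02 for Tnp2 and 0.07 for H1f7. With maternal dose 2 they were -0.09 for Prm1, 0.01 for Prm2, -0.10 for Tnp1 and -0.08 for Tnp2. With paternal dose 1 they were -0.05 for Prm2, 0.03 for Prm3, -0.11 for Tnp2 and -0.02 for H1f7, the last of which was 0.01 when scaled by library totals alone. With paternal dose 2 they were -0.17 for Prm1, -0.10 for Prm2, -0.04 for Prm3, -0.13 for Tnp2 and -0.14 for H1f7. With biparental dose 2 they were -0.01 for Prm1, 0.04 for Prm2, 0.04 for Tnp1, 0.12 for Tnp2 and 0.09 for H1f7. Across these, the lowest edgeR adjusted p was 0.643. At an unadjusted p under 0.05 the counts were 0, 1, 2, 1 and 0 of 6, where 6.54%, 15.7%, 12.5%, 5.02% and 7.02% of all genes reached it, and DESeq2 called 0 of 6 in each.

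Prm3 was the member that differed most with the mother's exposure. It was at 70.3, 73.3 and 74.5 CPM in control cross libraries A, B and C and at 95.9, 83.2 and 94.3 CPM with maternal dose 2, so that the groups did not overlap. The share of all genes whose groups did not overlap was not counted, here or in the comparisons below, so lack of overlap is a description only. The log2 fold change was 0.32 ± 0.13 (SE, n = 3 per group), with an adjusted p of 0.239 by edgeR's quasi-likelihood test with Benjamini-Hochberg adjustment. With maternal dose 1 Prm3 was at 68.9, 90.0 and 99.1 CPM, which overlapped with the control cross (log2 fold change 0.24, edgeR adjusted p = 0.763). With maternal dose 2, H1f7 libraries (377 to 384 CPM) also lay above the control cross (334 to 375 CPM), with a log2 fold change of 0.09 and an edgeR adjusted p of 0.751. In biparental dose 2 Prm3 was at 80.9, 76.8 and 76.9 CPM, above each control cross library, with a log2 fold change of 0.11 and an edgeR adjusted p of 0.926. With maternal dose 2, 2 of 15 elongating spermatid markers had a log2 fold change above 0 (median -0.19), none of them called, and their part in the Prm3 and H1f7 values was not tested.

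With the father's exposure, 5 of 6 log2 fold changes were below 0 at dose 1 and 6 of 6 at dose 2. Those of Tnp1 and Prm1 were the furthest below 0. Tnp1 was at 1213, 1117 and 1093 CPM in the control cross, at 877, 1046 and 960 CPM with paternal dose 1, and at 963, 926 and 1042 CPM with paternal dose 2. Neither paternal group overlapped with the control cross for Tnp1, though lack of overlap was not counted over all genes. The log2 fold changes were -0.27 ± 0.10 (edgeR adjusted p = 0.255) and -0.23 ± 0.10 (edgeR adjusted p = 0.954). Prm1 was at 1860, 1717 and 1783 CPM in the control cross and at 1537, 1651 and 1578 CPM with paternal dose 1, without overlap (log2 fold change -0.20 ± 0.09, edgeR adjusted p = 0.363). With paternal dose 2 Prm1 was at 1507, 1501 and 1790 CPM, and library C overlapped with the control cross. Kit, a receptor of differentiating spermatogonia, was the 1 of 9 spermatogonia markers that passed with paternal dose 1, where it rose by 0.45 ± 0.07 on the log2 scale (edgeR adjusted p = 0.0165). The 9 markers summed to 127 to 148 CPM there and to 118 to 123 CPM in the control cross, while 0 of 15 elongating spermatid markers (median log2 fold change -0.15) and 0 of 13 round spermatid markers (median -0.10) were above 0, and 8 of 10 Sertoli cell markers were (median 0.13). The part of these shifts in the Prm1 and Tnp1 values was not tested.

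Setting mothers directly against fathers at the same dose called no member. At dose 1, 0 of 6 were called (background 0.0413%), with log2 fold changes of 0.16 for Prm1, 0.12 for Prm2, 0.20 for Prm3, 0.19 for Tnp1, 0.09 for Tnp2 and 0.09 for H1f7. At dose 2, 0 of 6 were called (background 0.119%), with log2 fold changes of 0.08 for Prm1, 0.11 for Prm2, 0.14 for Tnp1, 0.05 for Tnp2 and 0.35 ± 0.13 for Prm3 (edgeR adjusted p = 0.195). Prm3 libraries were at 83.2 to 95.9 CPM with an exposed mother and at 63.8 to 75.3 CPM with an exposed father, and did not overlap. H1f7 was also apart, at 377 to 384 CPM against 302 to 351 CPM (log2 fold change 0.22 ± 0.11, edgeR adjusted p = 0.344). Lack of overlap was not counted over all genes here either. Unadjusted p-values under 0.05 numbered 0 and 1 of 6, where 11.5% and 16.0% of all genes reached this, and DESeq2 called 0 of 6 at both doses.

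**Figure D2:**
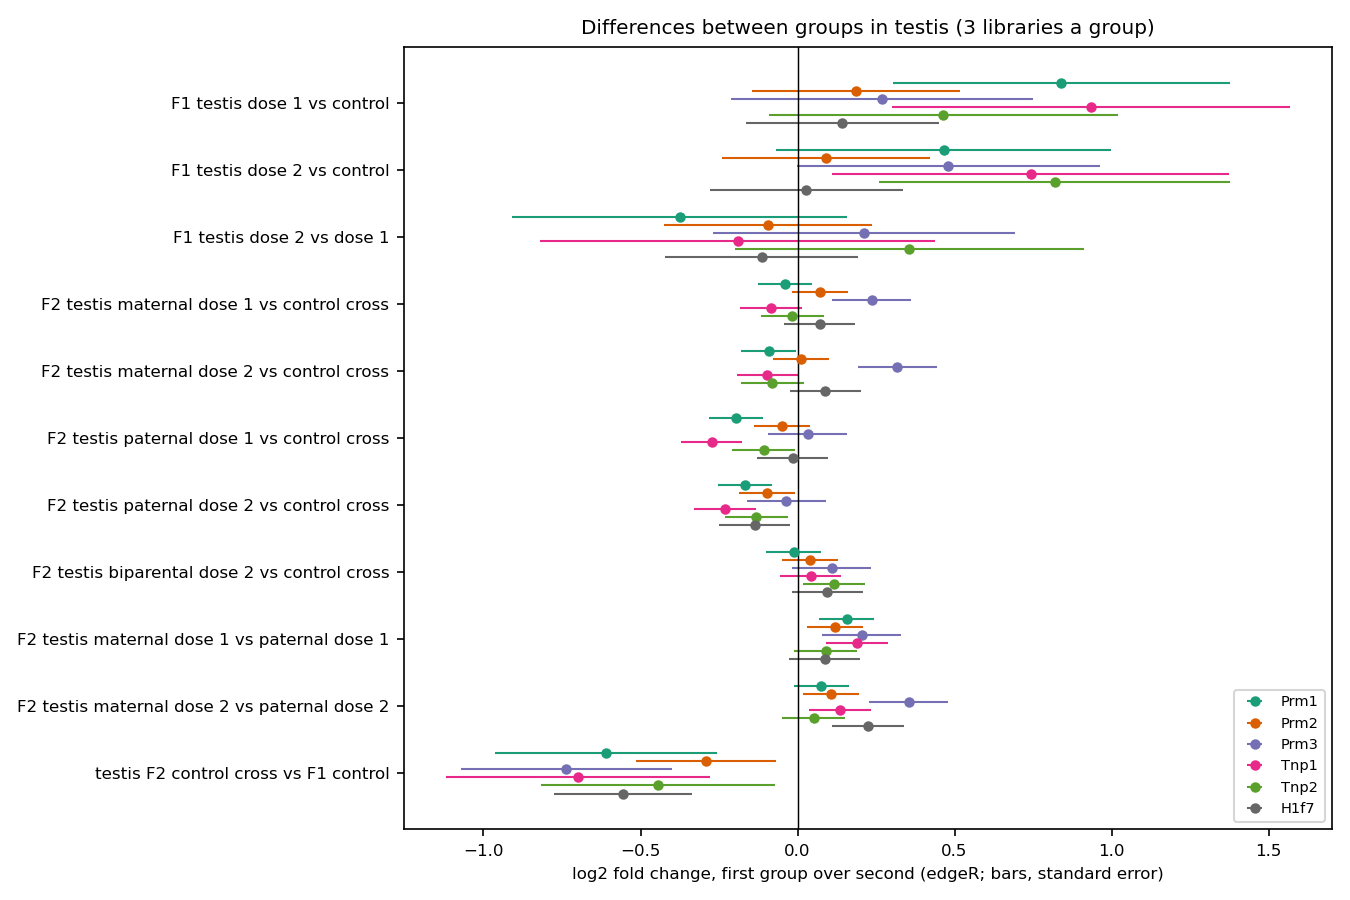
Log2 fold change of each gene in the 11 testis comparisons, first group over second, with edgeR's standard error; 3 libraries per group. No point passed the threshold, and error bars in the F1 comparisons (0.31 to 0.63) are wider than those among F2 groups (0.09 to 0.13).

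The F2 control cross was set against F1 controls, which differ in generation and in whatever was done apart for the 2 generations; these cannot be told apart. The 6 log2 fold changes, F2 over F1, were all below 0, at -0.61 ± 0.35 for Prm1 (SE, n = 3 per group), -0.29 ± 0.22 for Prm2, -0.74 ± 0.34 for Prm3, -0.70 ± 0.42 for Tnp1, -0.45 ± 0.37 for Tnp2 and -0.56 ± 0.22 for H1f7, and 0 of 6 were called (background 0.516% of 19578 genes). Adjusted p ran from 0.157 for H1f7 to 0.486 for Tnp2 by edgeR's quasi-likelihood test with Benjamini-Hochberg adjustment. At an unadjusted p under 0.05 the count was 2 of 6, Prm3 and H1f7, where 22.0% of all genes reached this, and DESeq2 called 0. The lowest F1 control H1f7 level, 389 CPM, was above the highest in the control cross, 375 CPM, and Prm3 was likewise apart (85.0 against 74.5 CPM). How many of all genes were apart in this way was not counted. Of the marker genes Amh, a hormone of Sertoli and granulosa cells, was called in this contrast, where it fell by 0.95 ± 0.20 on the log2 scale (edgeR adjusted p = 0.0398), and its part in the members' values was not tested.

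The 2 protamines did not keep a fixed proportion in F1 testis. There were 0.558, 0.477 and 0.850 Prm1 counts per Prm2 count in controls A, B and C, 0.805, 1.21 and 1.01 with dose 1, and 1.02, 0.493 and 0.848 with dose 2. In the 18 F2 libraries the ratio stayed between 0.435 and 0.541 (median 0.495), and 7 of 9 F1 libraries exceeded the highest of these. F1 control B and dose 2 B lay within the F2 range. The dose 1 mean of 1.01 ± 0.20 (SD, n = 3) exceeded the control mean of 0.628 ± 0.196, but the groups overlapped, and the exact two-sided permutation test on log2 ratios gave p = 0.2 (adjusted over 11 testis comparisons, 0.611), where 3 against 3 cannot go below 0.1. Other comparisons of this ratio gave exact permutation p from 0.2 to 0.9, and none separated its groups.

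Tnp1 and Tnp2 also varied more in proportion in F1, with 0.480 to 1.06 Tnp1 counts per Tnp2 count in F1 and 0.457 to 0.555 in F2. Dose 2 C, at 0.544, lay within the F2 range here, although its Prm1 to Prm2 ratio of 0.848 lay above that of every F2 library. Transition protein counts per protamine count (Tnp1 and Tnp2 over Prm1 and Prm2) ran from 0.616 to 1.30 in F1, the highest being dose 2 C, and from 0.567 to 0.682 in F2.

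Summed over genes, the members ranged from 7024 to 22728 CPM in F1, more widely than markers of the same cells. The 15 elongating spermatid markers, among them the mitochondrial capsule gene Smcp, the fibrous sheath genes Akap3 and Akap4 and the outer dense fibre gene Odf1, summed to 7233 to 10652 CPM in F1 and 8541 to 11331 CPM in F2. The 6 members summed to 0.971 to 2.73 times those markers in F1 and to 0.742 to 1.03 times in F2, and 7 of 9 F1 libraries exceeded every F2 library. In dose 2 C, the ratio was 2.73, with Tnp2 at 0.964 times the marker sum. The 13 round spermatid markers summed to 3645 to 6049 CPM in F1, and both ends of that range were dose 2 libraries, B and C. Their part in the members' spread was not tested.

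**Figure D3:**
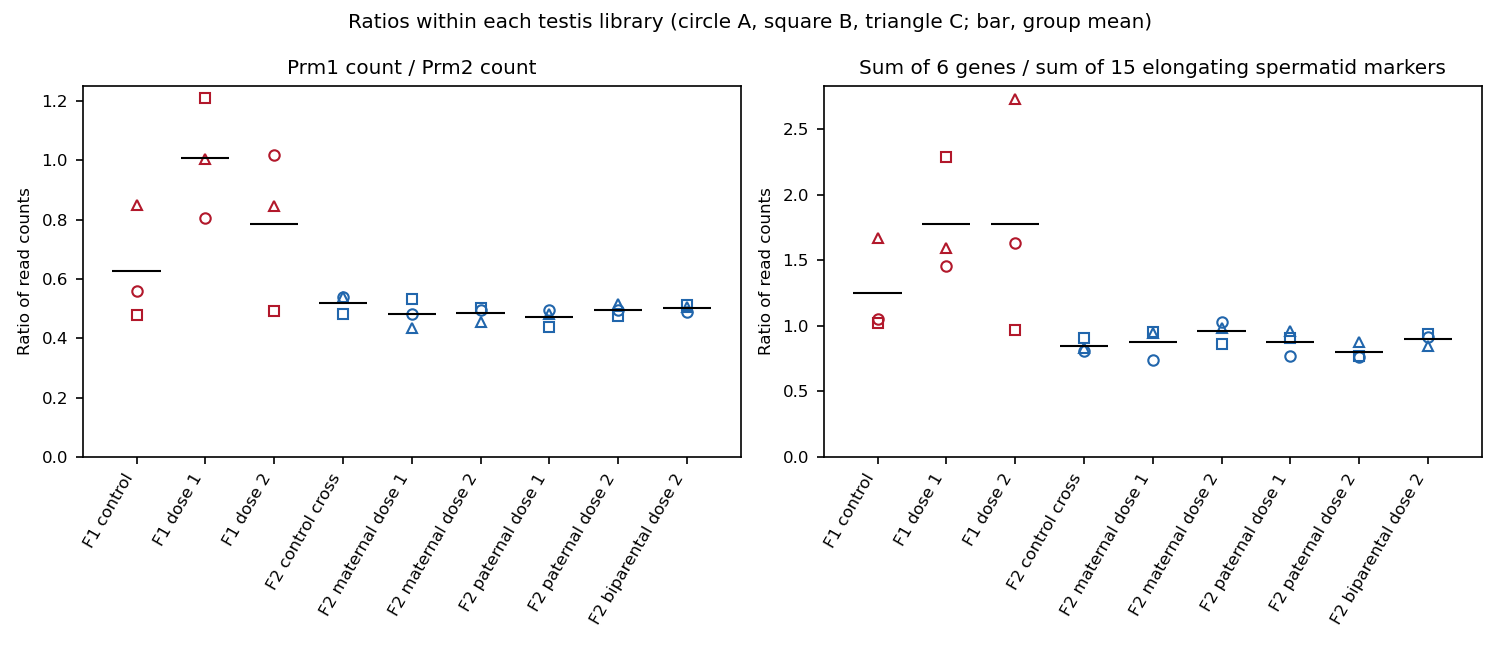
Left, Prm1 counts over Prm2 counts; right, summed counts of the 6 genes over those of 15 elongating spermatid markers, in each testis library, with group means as bars. F2 libraries lie between 0.435 and 0.541 on the left and between 0.742 and 1.03 on the right, and 7 of 9 F1 libraries lie above them in each panel.

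Genes whose profile was most like that of the members were sought by Pearson's r between log2 CPM and the mean log2 CPM of the 6 members, taking the lower of the values over 9 F1 and 18 F2 libraries. Of 10309 genes, and passing over the gene at rank 3, which has only a Gm or Rik symbol, the nearest were Oxct2a, a ketone body enzyme of spermatids (r = 0.85 in F1, 0.91 in F2), Tssk6, a spermatid kinase needed for histone replacement (0.92, 0.83), Cdc34, a ubiquitin-conjugating enzyme (0.95, 0.80), Irgc1 (0.92, 0.79) and Tmem64 (0.90, 0.79). These are descriptions, since the libraries share depth and composition between genes. Each member against the mean of the other 5 gave r from 0.84 for H1f7 to 0.97 for Tnp1 in F1, and from 0.64 for Prm3 to 0.84 for Prm2 in F2.

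The other genes of the histone-to-protamine pathway gave no call in testis. Of 42 genes in 5 lists (7 histone variants of male germ cells, 13 histone readers, modifiers and proteasome subunits, 9 transcription factors of spermatids, 9 factors of mRNA storage and translation, and 4 kinases and phosphatases), 0 rose and 0 fell in each of the 11 testis comparisons. At an unadjusted p under 0.05 the count was highest with paternal dose 1, with 11 of 42, where 12.5% of all genes reached this. The lowest p there was that of Hils1, a linker histone of elongating spermatids, with a log2 fold change of -0.27 ± 0.08 (edgeR adjusted p = 0.150), followed in the list of transcription factors by Fhl5, the coactivator of Crem (-0.31 ± 0.09, edgeR adjusted p = 0.156). With dose 1 against control in F1, the lowest p was that of H2bl1, a histone of condensing spermatids (log2 fold change 0.86 ± 0.47, edgeR adjusted p = 0.998). The median log2 fold change of the 7 histone variants there was 0.45, beside 0.37 for the 6 members and -0.01 for all genes tested. Of these variants, H1f1, H1f6, H2ac1 and H2bc1 were low, averaging 0.903, 2.67, 1.67 and 1.82 CPM in F1 testis. With paternal dose 1 the medians were -0.19 for the histone variants, -0.08 for the members and 0.00 for all genes.

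In ovary the members were measured in every F1 library and were close to 0 in F2. F1 control A stood alone, with 9216 Prm1 counts, 15894 Prm2 counts, 410 Prm3 counts, 5279 Tnp1 counts, 8993 Tnp2 counts and 1449 H1f7 counts. The 6 genes summed to 1126 CPM in that library, to 26.0 and 35.4 CPM in controls B and C, to 20.6, 9.75 and 68.2 CPM with dose 1 (A, B, C) and to 70.0, 76.9 and 27.8 CPM with dose 2. Control A was the highest library for each of the 6 genes, and without it the groups overlapped for Prm1, Prm3, Tnp1 and Tnp2. For Prm2, controls B and C (8.78 and 11.80 CPM) lay just below the lowest dose 2 library (11.83 CPM), and for H1f7 likewise (0.769 and 1.05 CPM against 1.06 CPM).

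The level in control A, as a share of the testis level, differed between genes. As a percentage of the mean CPM in F1 testis it was 7.19% for Prm1, 10.4% for Prm2, 8.39% for Prm3, 5.58% for Tnp1, 6.66% for Tnp2 and 7.80% for H1f7. In the other 8 F1 libraries the members were at 0.0457% (Tnp2) to 0.744% (Prm2) of testis. Medians in control A were 10.3% over 15 elongating spermatid markers (4.83% to 14.6%), 9.51% over 13 round spermatid markers (5.27% to 14.6%) and 11.9% over 9 spermatocyte markers (6.48% to 17.4%). All of these markers were highest in that library. The 7 histone variants of male germ cells ran from 6.00% to 21.2% (H1f1, on 7 counts), and 6 of the 7 were highest in control A. None of the 10 oocyte and none of the 7 granulosa cell markers was highest there. Of the Sertoli cell markers 6 of 10, of the Leydig cell markers 3 of 7 and of the spermatogonia markers 3 of 9 were highest in control A. The summed Sertoli markers of all 9 F1 ovary libraries were 296 to 403 CPM, within which an ovarian and a testicular share cannot be told apart. The source of these counts was not tested.

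Prm1 to Prm2 counts, and members over elongating spermatid markers, lay in F1 ovary at the lower end of the values in F1 testis. Prm1 counts per Prm2 count were 0.580 in control A and 0.459 to 0.755 over the 9 ovary libraries (median 0.580), against a median of 0.848 in F1 testis. The members summed to 0.985 to 1.33 times the 15 elongating spermatid markers (median 1.20), against a median of 1.60 in F1 testis. For each of these ratios, 6 of 9 F1 testis libraries exceeded every F1 ovary library. Tnp1 counts per Tnp2 count did not differ in this way, at 0.479 to 0.890 in F1 ovary and 0.480 to 1.06 in F1 testis. For that ratio, F1 testis dose 1 B alone exceeded every F1 ovary library.

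**Figure D4:**
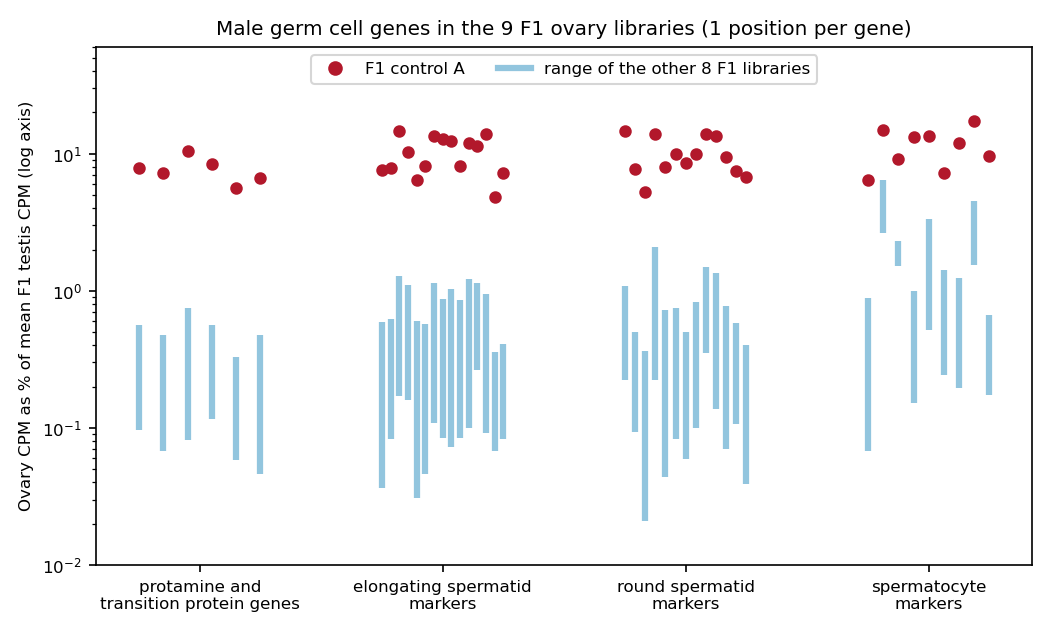
Level of the 6 genes and of the elongating spermatid, round spermatid and spermatocyte markers in F1 ovary as a percentage of its mean level in F1 testis, on a log axis; points are control A and bars the range of the other 8 libraries. Every gene shown has its highest value in control A, 5.58% to 10.4% for the 6 protamine and transition protein genes.

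Control A carried the F1 ovary comparisons. Dose 1 against control gave log2 fold changes of -3.60 for Prm1, -3.52 for Prm2, -3.44 for Prm3, -3.62 ± 1.36 for Tnp1, -3.59 for Tnp2 and -3.36 ± 1.46 for H1f7, but 0 of 6 members were called by edgeR's quasi-likelihood test (adjusted p = 0.550 for each), and background calls were 0% of 17896 genes. All 6 had an unadjusted p under 0.05, from 0.0269 to 0.0487 in the edgeR fit, as had 8.33% of all genes. Without control A the log2 fold changes were between -0.16 for Tnp1 and 0.54 for H1f7, with 3 of the 6 above 0. Dose 2 against control gave -2.81 for Prm1, -2.68 for Prm2, -2.83 for Prm3, -3.00 for Tnp1, -2.77 for Tnp2 and -2.76 for H1f7, with 0 of 6 called and 0 of 6 at an unadjusted p under 0.05 (background 0%), and without control A all 6 were above 0, from 0.47 to 1.18. Dose 2 against dose 1 gave 0.79 for Prm1, 0.84 for Prm2, 0.61 for Prm3, 0.62 for Tnp1, 0.83 for Tnp2 and 0.60 for H1f7, with 0 of 6 called, 0 of 6 at an unadjusted p under 0.05 and a background of 0%. DESeq2 gave no adjusted p for any of the 6 in the 3 comparisons, so it could call none.

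F2 ovary libraries held 4 to 33 counts of the 6 genes together, which is 0.106 to 0.516 CPM. Prm2 was found in 18 of 18 libraries with 3 to 16 counts, Prm1 in 13 with at most 17, and Tnp2 in 14 with at most 5. Tnp1 was found in 6 libraries with at most 3 counts, H1f7 in 2 and Prm3 in 1 with a single count each. A count of 0 allows up to 3 counts, or 0.0354 to 0.0791 CPM at the depths of these libraries, and such limits cover counting error only. No member passed the filter on low counts in F2 ovary, so none was tested for maternal dose 1, maternal dose 2, paternal dose 2 or biparental dose 2 (backgrounds 0%) or for paternal dose 1 (0.00575% of 17400 genes).

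**Figure D5:**
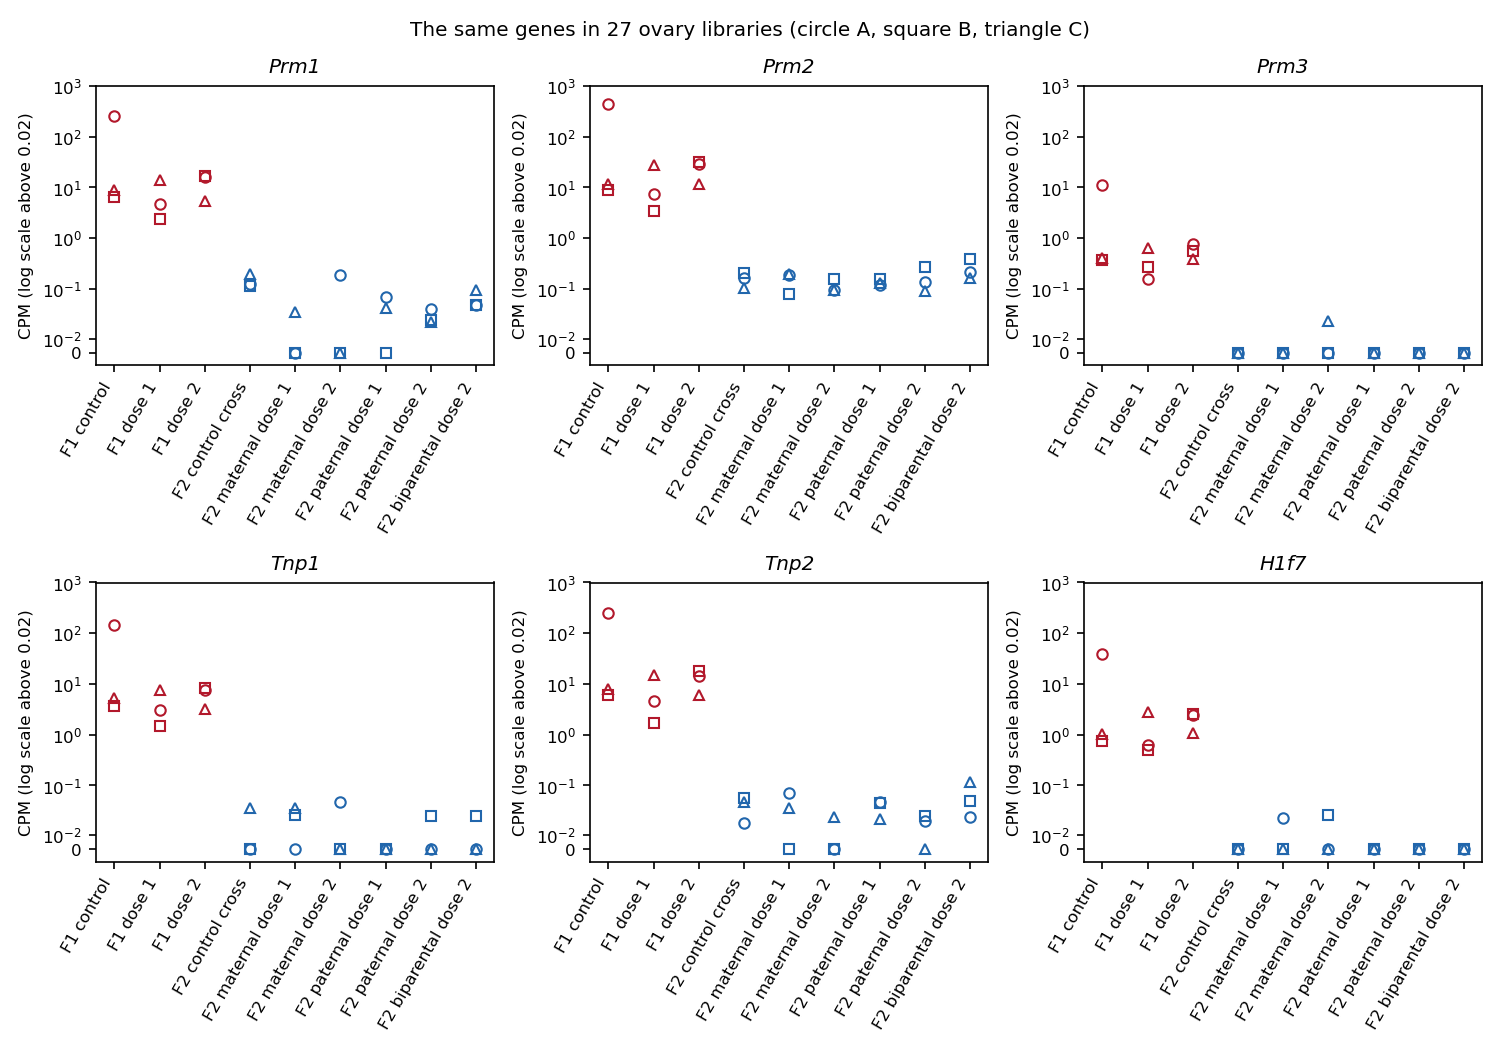
Level of each gene in the 27 ovary libraries, in CPM on a scale that is linear below 0.02 and logarithmic above; each symbol is 1 library (F1 red, F2 blue). Every F1 library lies above every F2 library for each gene, and F1 control A lies above all others.

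Between generations, every F1 ovary library exceeded every F2 ovary library for each of the 6 members. The same held for 11 of 15 elongating spermatid, 10 of 13 round spermatid and 2 of 9 spermatocyte markers, and for 2 of 7 histone variants. It held for 0 of 10 oocyte and 0 of 7 granulosa cell markers, and was not counted over all genes. By pooled CPM, F1 controls were 483-fold higher than the F2 control cross for Prm1 (95% exact counting interval 338 to 716), 847-fold for Prm2 (590 to 1265) and 1757-fold for Tnp2 (891 to 4071). Tnp1 had 3 counts in the control cross, for a ratio of 2769 (947 to 13433). Prm3 and H1f7 had 0, and with 3 counts over the group as the floor they were at least 217-fold and at least 745-fold higher in F1. Without control A these values were 48.6 for Prm1, 67.7 for Prm2, 166 for Tnp2 and 286 for Tnp1, and at least 24.8 for Prm3 and at least 57.7 for H1f7. These intervals leave out the spread between libraries, which is far wider.

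The members passed the filter in the fit of all 27 ovary libraries through F1 alone, so their direction was fixed by the filter. All 6 were called lower in the F2 control cross by edgeR's quasi-likelihood test with Benjamini-Hochberg adjustment (adjusted p from 0.00156 to 0.00458), with fitted log2 fold changes of -9.06 for Prm1, -9.83 for Prm2, -10.46 for Prm3, -11.38 for Tnp1, -10.84 for Tnp2 and -12.25 for H1f7, which depend on the prior count, where 20.8% of 18334 genes were called. With the 6 libraries of these groups alone, edgeR called 0 of 6 members and 0 of all genes, each member having an adjusted p of 0.134; DESeq2 on all libraries called 4 of 6. Of the 42 pathway genes, 39 were tested in ovary, and 17 fell and 2 rose in F2, where 1904 of all genes rose and 1904 fell. H2al2a and H2bl1 had at most 1 count in any F2 ovary library and Hils1 at most 7. These too passed the filter through F1 alone, which fixed their direction. How far F1 control A carried the values of the pathway genes was not tested. Those that fell were the histone variants Hils1 (log2 fold change -7.17), H2al2a (-8.89) and H2bl1 (-10.02), the chromatin genes Chd5 (-3.26), Phf7 (-2.84) and Brdt (-1.09), and the transcription factor genes Fhl5 (-3.58), Taf7l (-2.24), Gtf2a1l (-1.63), Crem (-1.18) and Rfx2 (-1.10). The RNA-binding genes Piwil1 (-3.47), Ddx25 (-3.21) and Ybx2 (-1.51) and the kinase genes Tssk6 (-4.62), Camk4 (-0.86) and Srpk1 (-0.27) made up the rest. The 2 that rose were the ubiquitin ligase gene Rnf8 (0.58) and the phosphatase gene Ppp1cc (0.41).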

How the data were processed

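Values were the raw read counts per gene that the authors deposited, 1 table per tissue, and all 54 columns were matched to samples by title. Per the submitters' processing notes, the tools were featureCounts 2.0.3, TopHat2 2.1.1 and Bowtie2 2.4.5 on mm39, besides SAMtools 1.13, bcl2fastq 2.20, DESeq2 1.32.0 and FastQC 1.19. The annotation and strand option used for counting are not stated there; reads of overlapping or antisense genes may be shared. Libraries were made from RNA with a stranded mRNA kit, per the labels' protocols.

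CPM was taken over each library's gene total. Fold changes came from edgeR 4.0.16 (R 4.3.3, quasi-likelihood F test, TMM scaling, filterByExpr with a count minimum of 10), fitted separately for each tissue and generation (9 or 18 libraries), and over all 27 libraries of a tissue for the contrast of generations. SE is the log2 fold change over the square root of F. P-values were adjusted over all genes tested and called at 0.05. The procedure was tested on simulated data. Alternatives were RLE scaling, library totals, no filter, a block for the replicate letter, DESeq2 1.42.0, other sets of libraries and leaving out each library. Letters were not treated as pairs, because no comparison that tested a member had same-letter correlations above 0.1 for A, B and C alike. Some had weaker positive ones for each letter. F2 ovary biparental dose 2 against the control cross, which tested no member, passed that limit (0.135, 0.114 and 0.211). No 2 libraries of a group agreed within sampling noise (chi-square per degree of freedom 7.43 or more). Transcript lengths were the longest in GENCODE M21, and promoters came from RefSeq on GRCm38.p6; all 6 members matched.

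All members were named in every comparison that tested them. Pathway genes were named where they passed over all genes, and otherwise, at most, the 1 of lowest p in a comparison. Members, lists and rules were chosen with earlier results of these data known; Fhl5 in the paternal dose 1 comparison was picked after its values were seen.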

Additional observations from a re-analysis of the deposited data

How the results depend on the processing

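In 870 alternative fits of single members in testis, 0 passed the threshold, and the sign of a change that was called in neither fit flipped in 44. Of 261 alternative counts of members called, 260 equalled or stayed within 1.5 times the first value. The exception was ovary F2 control cross against F1 control, where the 6 libraries alone gave 0 of 6 called in place of 6; the cause was not tested. Leaving out each library there kept 6 of 6, and DESeq2 gave 4 of 6, the other 2 having no adjusted p. The 261 counts include the 5 F2 ovary comparisons, in which the first fit tested no member. Where no member passed the filter, 0 called was fixed in advance, as it was for DESeq2 in F1 ovary. With the replicate letter as a block (replicate block), 0 of 6 members were called in each testis comparison, and 6 of 6 in ovary F2 control cross against F1 control. Counts over all genes moved more, from 72 to 297 under the block and to 336 with DESeq2 for maternal dose 2 in F2 testis. The lowest adjusted p of a member in testis under any alternative was 0.0700, in the contrast of generations, and 0.0913 among the F2 crosses, for mothers against fathers at dose 2. Leaving out 1 library moved the Prm1 to Prm2 ratio difference by less than 1 SD in all 66 cases and changed its sign in 4. In F1 testis the spread between libraries limits what can be seen, not the depth, since every member had at least 3219 counts per library; in F2 ovary counts of 17 or fewer limit it. Without the filter on low counts, the F2 ovary fit called 0 of 6 members in each of 5 comparisons.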
